A study of Homo sapiens with 65 samples.

Results

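Epithelial adhesion and keratin genes were followed in left-ventricular cardioids, heart-like aggregates grown from human pluripotent stem cells. The set holds 10 genes of the 58735 in the count table: CDH1, EPCAM, AP1M2, MAL2, CLDN6, CLDN7, KRT8, KRT18, KRT19 and ESRP1. All 10 were found. The members were chosen by their measured expression in these libraries. AP1M2, MAL2, CDH1 and EPCAM were listed because they were higher in HAS2 knockout cardioids at day 4.5 or 7.5, KRT18 because it was called in both experimental arms, and the others as genes of the same kind. The contrasts that this choice rests on are therefore described below without a test of the members. The members' adjusted p-values in them (edgeR quasi-likelihood test, Benjamini-Hochberg over all genes, threshold 0.05) are given once here, as part of the rule. Just inside the threshold were CDH1 at day 4.5 (0.0112) and MAL2 at day 7.5 (0.0284) for knockout against wild type, and KRT18 at day 7.5 (0.0146) for hyaluronidase from day 1.5. Just outside were EPCAM at day 7.5 (0.0860) and ESRP1 at day 4.5 (0.113) for knockout, and KRT8 at day 4.5 (0.0603) for hyaluronidase from day 2.5.

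The series comprised 65 libraries in 16 groups, made with a 3′ mRNA kit that reads the end of each polyadenylated transcript. All cells carried the label WTC-11, a human induced pluripotent stem cell line, and each library pooled 8 cardioids. In the genotype arm (41 libraries), wild-type lines (WT; line names WT, WT_TU, cl43_WT_UT and TNT2) were set against clones labelled as HAS2 knockout (KO; cl4, cl14, cl46 and cl51). HAS2 encodes a synthase of hyaluronan, a sugar polymer of the extracellular matrix. WT was sampled 5, 6, 6 and 3 times on the 4 days 1.5, 2.5, 4.5 and 7.5, and KO 6, 6, 6 and 3 times. Repeats of cl4 (R1 to R3) gave up to 3 of the 6 KO libraries of a day, so the KO libraries do not stand for 6 independent clones. At day 7.5 the 3 KO libraries came from cl4 (R2 and R3) and cl14 only. The WT libraries held repeats as well: at days 2.5 and 4.5 the lines WT and WT_TU each gave R1 and R2. At day 7.5 the 3 WT libraries were WT_R1, WT_R2 and WT_TU_R2, so they do not stand for 3 independent lines. In the enzyme arm (24 libraries, 3 per group), cardioids left untreated were set against cardioids given hyaluronidase, which digests hyaluronan. The group HAse1.5 received it from day 1.5, and HAse2.5 from day 2.5. This arm was sampled at days 2.5, 4.5 and 7.5, with HAse2.5 at the later 2 days, and replicates 1, 2 and 3 were the lines TNNI1, WT and TNNT2. Cells were dissociated and reseeded as aggregates at day 1.5. The labels call the cells of days 1.5 to 4.5 cardiac progenitors and those of day 7.5 cardiomyocytes. The p-values measure the spread between these libraries, which the labels describe as biological replicates.

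Epithelial cells hold together through adherens junctions, built on E-cadherin (CDH1), and tight junctions, sealed by claudins (CLDN6, CLDN7). EPCAM is a surface adhesion protein of simple epithelia and of pluripotent stem cells. KRT8, KRT18 and KRT19 are the keratins of simple epithelia: KRT8, a type II keratin, pairs with the type I keratins KRT18 and KRT19 to form intermediate filaments. AP1M2 is the medium subunit of an epithelial form of the AP-1 adaptor, which sorts proteins to the basolateral membrane, MAL2 is a membrane protein of apical transport, and ESRP1 is a splicing factor of epithelial cells. Pluripotent stem cells are themselves epithelial. They lose E-cadherin when mesoderm forms, in an epithelial-mesenchymal transition in which repressors such as SNAI1, SNAI2 and ZEB1 bind E-box sequences. Keratins 8, 18 and 19 are also made outside classical epithelia, including in the early heart.

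The genes are given by their GENCODE 29 positions on GRCh38. CDH1 (ENSG00000039068) spans chr16:68737225-68835548 on the plus strand, EPCAM (ENSG00000119888) chr2:47345158-47387601 on the plus strand, and AP1M2 (ENSG00000129354) chr19:10572671-10587315 on the minus strand. CLDN6 (ENSG00000184697) lies at chr16:3014712-3020071 on the minus strand, where TNFRSF12A overlaps it on the other strand. CLDN7 (ENSG00000181885) lies at chr17:7259903-7263983 on the minus strand and is overlapped by AC003688.1 on the same strand and by ELP5 on the other. KRT8 (ENSG00000170421, chr12:52897187-52949954, minus strand) and KRT18 (ENSG00000111057, chr12:52948871-52952901, plus strand) overlap at their ends. KRT19 (ENSG00000171345) lies at chr17:41523617-41528308 on the minus strand. MAL2 is ENSG00000147676 and ESRP1 is ENSG00000104413. The strand setting of the counting is not given in the sources used here. If strand was not used, reads from the overlapping stretches of KRT8 and KRT18, CLDN6 and TNFRSF12A, or CLDN7 and ELP5 could not be told apart.

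The promoters of 3 members are shown because the members fell into 2 courses over the days, and these windows hold different numbers of the E-box CACCTG. It was searched in both orientations, the other of which reads CAGGTG, with no overlap between matches. Each window is the 250 bases before a RefSeq gene start on GRCh38.p14, written 5′ to 3′ on the minus strand of the chromosome, which is the strand of all 3 genes, with matches in capitals. AP1M2 is at chr19:10587313-10587562, the second of the 2 starts of CLDN7 at chr17:7262479-7262728, and KRT8 at chr12:52926470-52926719.
AP1M2: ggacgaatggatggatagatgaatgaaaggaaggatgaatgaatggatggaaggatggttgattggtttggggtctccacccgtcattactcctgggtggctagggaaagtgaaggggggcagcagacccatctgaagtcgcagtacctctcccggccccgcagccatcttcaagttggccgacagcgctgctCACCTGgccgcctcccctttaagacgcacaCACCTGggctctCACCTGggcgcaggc
CLDN7: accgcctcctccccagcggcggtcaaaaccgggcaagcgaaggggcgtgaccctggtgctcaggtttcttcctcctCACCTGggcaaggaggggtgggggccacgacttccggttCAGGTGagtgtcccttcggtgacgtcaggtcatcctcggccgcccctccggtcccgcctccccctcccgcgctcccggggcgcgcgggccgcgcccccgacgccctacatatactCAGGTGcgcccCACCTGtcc
KRT8: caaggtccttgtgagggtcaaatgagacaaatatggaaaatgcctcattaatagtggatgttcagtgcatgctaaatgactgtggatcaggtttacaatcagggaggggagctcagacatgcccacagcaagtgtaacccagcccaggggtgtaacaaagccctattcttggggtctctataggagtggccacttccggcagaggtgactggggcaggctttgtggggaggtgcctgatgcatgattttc
AP1M2 held 3 matches, 15 to 57 bases before the start. The CLDN7 window held 4, with 2 in each orientation, 9 to 174 bases before the start. No match was found in the windows of KRT8, CLDN6 and the other CLDN7 start, although CLDN6 fell from day 1.5 to day 2.5 in WT, as AP1M2 and CLDN7 did. The KRT8 window lies inside the GENCODE span of the gene, away from its 5′ end, and no other KRT8 start was searched. Of 35116 such windows in the table, 6143 (17.5%) held the E-box and 163 (0.464%) held 3 or more. Windows for CDH1, EPCAM, KRT18, KRT19, MAL2 and ESRP1 were not used here. These matches are letters in a sequence and were not tied to any of the values below.

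Library totals ran from 831062 to 3574843 counts (median 1570954), and levels are given as CPM, a gene's counts scaled to a common library total. A 3′ kit gives about 1 read per transcript, so CPM is not divided by gene length. Where every library of a group had 3 counts or fewer for a gene, the group is called at the floor, and a fold against it is a lower bound computed from 3 counts. These floors cover counting error only. HAS2 itself was counted in the KO libraries at levels that overlapped WT on every day (mean 351 CPM in KO and 339 CPM in WT at day 4.5). A 3′ count outside an edited site does not check the label. The labelled cell types were checked against markers. TNNT2, the cardiac troponin T gene, averaged 0.877 CPM in WT at day 1.5, 5021 at day 4.5 and 5918 at day 7.5, while POU5F1, a pluripotency factor, averaged 288, 1.01 and 1.29 CPM. Library numbers fell into 3 blocks, called runs A, B and C. Run A holds the 10 libraries of repeats WT_R1, WT_TU_R1 and cl4_R1. Its WT libraries at days 1.5, 2.5 and 4.5 and cl4_R1 at day 1.5 were the highest of their groups in both CLDN6 and KRT8, while cl4_R1 at day 4.5 lay within the other KO values. Results for these genes are therefore also given without run A. In bulk libraries, fewer cells of a type and less RNA per cell cannot be told apart.

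In WT cardioids the 10 genes split into 2 courses between day 1.5 and day 2.5, a contrast that the choice of genes did not use. The 7 adhesion, sorting and splicing genes fell and KRT8 and KRT19 rose, so all 9 members tested passed, where 30.1% of the 13797 genes tested did. The cells were reseeded at day 1.5, where this step begins, and the part of reseeding in it was not tested. Steps between days reuse libraries that also entered the contrasts behind the choice. They are therefore given without a test for KRT18, and after day 2.5 in WT also for AP1M2, MAL2, CDH1 and EPCAM, while the tests of the other members share those libraries as well.

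CDH1 read 9.82, 13.3, 13.5, 21.4 and 26.3 CPM in the 5 WT libraries of day 1.5, and 1.53 to 5.58 CPM (median 3.23) in the 6 of day 2.5. The groups did not overlap, and CDH1 fell by 2.53 ± 0.55 on the log2 scale (SE, adjusted p = 0.000475). By day 4.5 it was at 0 in 3 of 6 WT libraries and between 1.56 and 2.50 CPM in the rest. The log2 difference between these days was −1.44 ± 0.66, described only.

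EPCAM read 7.83, 17.2, 22.0, 33.1 and 43.9 CPM at day 1.5 and 4.59 to 15.1 (median 8.70) at day 2.5. WT_R1, at 7.83 CPM, lay among the day 2.5 values, and the other 4 lay above them. EPCAM fell by 1.498 ± 0.34 (log2, adjusted p = 0.000705). At day 4.5 the 6 libraries spanned 2.50 to 11.9 CPM and at day 7.5 the 3 libraries read 1.29, 2.57 and 5.58 CPM. The ranges of days 2.5 and 4.5 overlapped (log2 difference −0.39 ± 0.35), as did those of days 4.5 and 7.5 (−1.19 ± 0.52).

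The claudins differed in level and in stability between libraries. CLDN7 read 3.62, 13.6, 15.951, 17.9 and 29.4 CPM at day 1.5 and 0.492 to 7.34 CPM (median 4.23) at day 2.5, a fall of 2.16 ± 0.49 (log2, adjusted p = 0.000688). The lowest day 1.5 library, TNT2, overlapped the day 2.5 range. CLDN6, by contrast, read 882 and 579 CPM in the 2 run A libraries of day 1.5 and 132, 151 and 152 CPM in the other 3. At day 2.5 the run A libraries read 190.0 and 241 CPM, and the other 4 read 18.9 to 25.6 in run C and 35.7 to 44.7 in run B. Within each run CLDN6 was thus lower at day 2.5, and the fall was 2.27 ± 0.60 with all libraries (adjusted p = 0.00336) and 2.38 ± 0.23 without run A (adjusted p = 7.7e-11).

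Among the sorting and transport genes, AP1M2 read 11.4, 14.9, 18.8, 21.0 and 22.3 CPM at day 1.5 and 1.47 to 6.98 CPM (median 3.16) at day 2.5, with no overlap (−2.56 ± 0.36 log2, adjusted p = 5.45e-07). At day 4.5 it was at 0 counts in 5 of 6 WT libraries and read 0.360 CPM in WT_TU_R1. That group is at the floor, at least 2.22-fold lower than day 2.5, which is a description, since AP1M2 was chosen partly on these libraries. MAL2 read 14.9, 19.3, 23.8, 24.5 and 28.9 CPM at day 1.5 and 1.84 to 5.86 CPM (median 2.76) at day 2.5, again with no overlap (−2.97 ± 0.43 log2, adjusted p = 6.19e-07). It then read 1.25 to 7.92 CPM at day 4.5 and was at the floor at day 7.5, at least 2.23-fold lower, a description for the same reason. MAL2 lies at chr8:119165034-119245673 and ESRP1 at chr8:94641074-94707466, both on the plus strand. ESRP1 read 8.79, 9.92, 10.1, 12.039 and 12.3 CPM at day 1.5 and 1.02 to 6.88 CPM at day 2.5, with no overlap (−1.65 ± 0.51 log2, adjusted p = 0.0115).

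The keratins had their highest WT levels at day 2.5. KRT19 read 72.6, 84.6, 101, 118 and 161 CPM at day 1.5, 919 to 1443 CPM (median 1083) at day 2.5, 181 to 270.3 CPM (median 200.1) at day 4.5 and 91.4, 102 and 107 CPM at day 7.5. It rose by 3.20 ± 0.25 (log2, adjusted p = 5.24e-13) and then fell by 2.38 ± 0.23 (adjusted p = 4.61e-11) and by 1.05 ± 0.28 (adjusted p = 0.0303). No day overlapped the day 2.5 values, and those of day 7.5 lay within the range of day 1.5.

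KRT8 read 184, 187, 192, 369 and 369.9 CPM at day 1.5, with the upper 2 from run A, and 597 to 1898 CPM (median 926) at day 2.5. It rose by 1.74 ± 0.28 (log2, adjusted p = 4.65e-06), and by 1.94 ± 0.16 without run A (adjusted p = 9.82e-13). KRT18 read 363, 364, 368, 409 and 457 CPM and then 782 to 1409 CPM (median 1182) (log2 difference 1.32 ± 0.21, described only). All day 2.5 libraries lay above all day 1.5 libraries in both genes.

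From day 2.5 to day 4.5, 2 of the 5 members tested fell (KRT8 and KRT19) and none rose, where 34.5% of all genes changed, so the members' share is close to the background. KRT8 fell by 1.14 ± 0.26 (adjusted p = 0.000450), and KRT18, described only, differed by −0.67 ± 0.20. CLDN6, CLDN7 and ESRP1 did not pass (log2 differences of 0.21 ± 0.56, −1.11 ± 0.55 and −0.48 ± 0.54). CLDN7 passed without WT_TU_R1 at day 4.5 or without TNT2 at day 2.5, which made 3 members called. From day 4.5 to day 7.5, KRT8 and KRT19 fell among the 5 tested, where 2.7% of all genes changed. KRT18, described only, went from 456 to 818 CPM to 194, 221 and 241 CPM with no overlap (−1.64 ± 0.26 log2). KRT8 went from 322 to 699 CPM to 166, 180.1 and 219.7 CPM (−1.22 ± 0.33, adjusted p = 0.0320). The calls of KRT8 and KRT19 at this step were each lost without any 1 of the 3 day 7.5 libraries, which left 0 members called. KRT8 was also lost without WT_R1 or WT_TU_R1 at day 4.5, and KRT19 without TNT2 at day 4.5 or without run A.

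**Figure D1:**
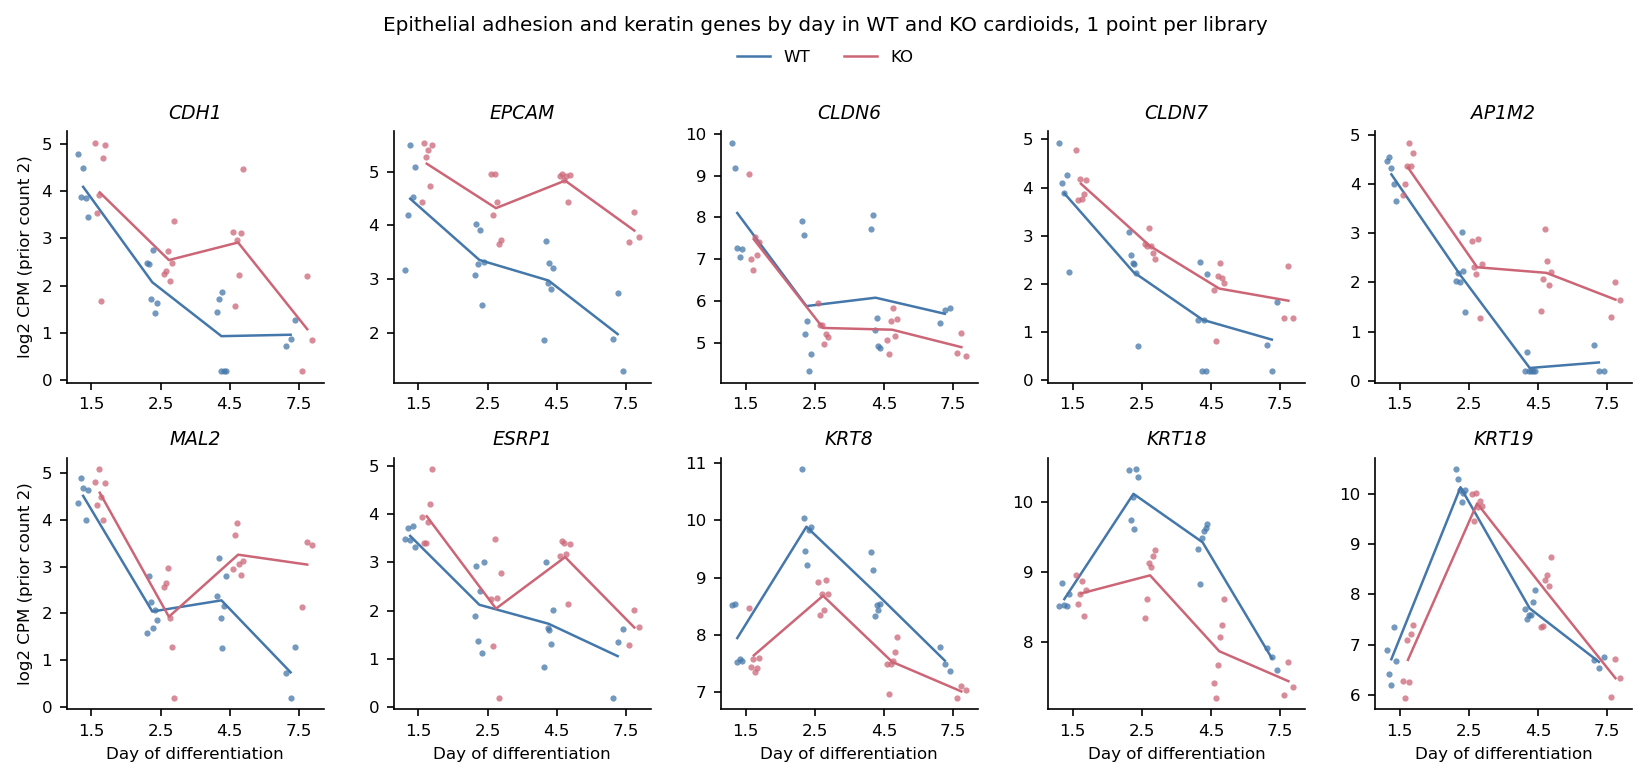
Log2 CPM (prior count of 2) of the 10 genes (y axes) at days 1.5, 2.5, 4.5 and 7.5 in WT and KO libraries of the genotype arm. Each point is a library and the line runs through group means of log2 CPM. The adhesion genes are highest at day 1.5 and the keratins at day 2.5. On the unlogged CPM scale, EPCAM at day 4.5 lies at 2.50 to 11.9 CPM in WT and 20.5 to 29.9 CPM in KO.

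The untreated cardioids of the enzyme arm, a separate set of 9 libraries from 3 lines, gave the later steps again. CDH1, AP1M2 and CLDN7 were too low to enter that fit, and KRT18 is described only, so 6 of 10 members were tested. From day 2.5 to day 4.5 KRT8 and KRT19 fell and the other 4 did not pass, where 23% of the 12748 genes tested did. KRT19 read 1204, 1303 and 1590.3 CPM in replicates 1, 2 and 3 at day 2.5 and 300.3, 174 and 246 CPM at day 4.5 (−2.63 ± 0.42 log2, adjusted p = 0.000123). KRT18 read 1336, 1527 and 1861 CPM and then 566, 629.6 and 649 CPM (−1.49 ± 0.26 log2). KRT8 read 691, 614 and 653 CPM and then 350.1, 385 and 297 CPM (−1.05 ± 0.37, adjusted p = 0.0425), a call that was lost without any 1 of the 6 libraries and with no filter on low counts, which left 1 member called. All 3 lines were lower at day 4.5 in each keratin.

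EPCAM in these lines read 10.2, 10.7 and 8.97 CPM at day 2.5 and 21.2, 19.5 and 11.8 CPM at day 4.5, higher in 3 of 3 lines, but the difference did not pass (0.69 ± 0.55 log2, adjusted p = 0.392). From day 4.5 to day 7.5, none of the 6 tested members passed, where 6.37% of all genes did. An unadjusted p under 0.05 was found for 3 of the 6 by edgeR, a count with no matching share of all genes given here. DESeq2 called 1, KRT8. KRT8 read 350.1, 385 and 297 CPM at day 4.5 and 98.2, 242 and 89.0 CPM at day 7.5 (−1.15 ± 0.37 log2, adjusted p = 0.0679). It was lower in 3 of 3 lines, with adjusted p = 0.0190 with a replicate block for the line, 0.0333 by DESeq2 and 0.00594 without replicate 2 of day 7.5. KRT18, described only, read 174, 339.5 and 378 CPM at day 7.5 (−0.92 ± 0.26). CLDN6 read 72.3, 35.5 and 26.4 CPM at day 4.5 and 167, 61.9 and 142 CPM at day 7.5, higher in 3 of 3 lines (1.57 ± 0.57, adjusted p = 0.0956, and 0.0456 with a replicate block for the line and 0.0375 without replicate 2 of day 7.5). In WT of the genotype arm CLDN6 differed by −1.04 ± 0.74 between day 7.5 and day 4.5 with all libraries and by 0.65 ± 0.27 without run A (adjusted p = 0.584 and 0.173). The arms were not tested against each other.

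The comparison of KO with WT at day 1.5, the day on which the cells were reseeded, was not used in choosing the genes. Of the 9 members tested (all but KRT18), none passed, as was the case for all genes (0% called). None of the 9 had an unadjusted p under 0.05 by edgeR, and DESeq2 also called none. EPCAM read 7.83, 17.2, 22.0, 33.1 and 43.9 CPM in WT and 20.6 to 45.4 CPM (median 39.3) in KO (0.53 ± 0.33 log2, adjusted p = 0.938). CDH1 read 2.06 to 31.4 CPM in KO, a wide span with cl14 lowest, and differed by 0.14 ± 0.50. AP1M2 (12.6 to 27.5 CPM in KO), MAL2 (15.0 to 32.9), CLDN7 (12.2 to 26.2) and ESRP1 (9.41 to 29.4) overlapped WT. KRT18, described only, read 332 to 494 CPM in KO and 363 to 457 CPM in WT. CLDN6 differed by −0.91 ± 0.58 with all libraries and by 0.01 ± 0.20 without run A.

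From day 2.5 on, the values of KO and WT are those the choice of genes drew on, and they are given as a description. In KO cardioids the keratins KRT8 and KRT18 were lower at days 2.5 and 4.5, EPCAM, CDH1 and AP1M2 were higher at day 4.5, and MAL2 was higher at day 7.5. At the threshold, 2 of 10 members were lower at day 2.5 (where 0.993% of all genes were called), 3 higher and 2 lower at day 4.5 (3.74%), and 1 higher at day 7.5 (0.348%).

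EPCAM read 4.59 to 15.1 CPM (median 8.70) in WT and 11.5 to 30.1 CPM (median 18.8) in KO at day 2.5, where the ranges overlapped. At day 4.5 it read 2.50 to 11.9 CPM (median 7.30) in WT and 20.5 to 29.9 CPM (median 29.1) in KO. Every KO library was above every WT library of this arm, with cl46 lowest, and the log2 difference was 1.85 ± 0.34. The untreated cardioids of the enzyme arm read 11.8 to 21.2 CPM on that day, from the top of this WT range into the KO range. At day 7.5 the 3 WT libraries read 2.57, 5.58 and 1.29 CPM and the 3 KO libraries 11.7, 17.8 and 12.6 CPM, again apart (2.13 ± 0.56). The EPCAM medians of day 1.5 and day 7.5 were 39.3 and 12.6 CPM in KO, and 22.0 and 2.57 CPM in WT.

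CDH1 at day 4.5 read 0, 0, 0, 1.56, 2.16 and 2.50 CPM in the 6 WT libraries and 1.83, 3.56, 6.72, 7.54, 7.62 and 20.8 CPM in the 6 KO libraries (2.64 ± 0.63 log2). The highest KO library was cl51, and the lowest, cl4_R2 at 1.83 CPM, lay within the WT range. At day 2.5 the genotypes overlapped (0.53 ± 0.58). At day 7.5 CDH1 was low in both, with 0.513, 0.698 and 1.29 CPM in WT, a group at the floor, and 0, 3.45 and 0.664 CPM in KO, so no fold is given. AP1M2 at day 4.5 was at 0 in 5 of 6 WT libraries and read 1.52, 2.69, 3.06, 3.47, 4.27 and 7.39 CPM in KO, at least 2.34-fold higher, with no overlap. At day 7.5 it read 0.513, 0 and 0 CPM in WT and 1.30, 2.88 and 1.99 CPM in KO, at least 1.11-fold higher. At day 2.5 AP1M2 overlapped (1.47 to 6.98 CPM in WT, 1.28 to 6.27 CPM in KO).

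MAL2 at day 4.5 read 1.25, 2.60, 3.30, 4.06, 5.78 and 7.92 CPM in WT and 5.92, 6.60, 7.12, 7.53, 11.6 and 14.1 CPM in KO, with 4 KO libraries inside the WT range (0.94 ± 0.42 log2). At day 7.5 it read 0.513, 0 and 1.29 CPM in WT and 3.25, 10.4 and 9.96 CPM in KO, at least 4.23-fold higher and apart. ESRP1 at day 4.5 read 0.625, 1.32, 1.88, 1.95, 2.89 and 6.84 CPM in WT and 3.23, 7.62, 7.83, 9.27, 9.40 and 9.78 CPM in KO (1.46 ± 0.53), where WT_TU_R1 lay among the KO values and cl46 among the WT values. CLDN7 overlapped between genotypes, with 0 to 4.32 CPM in WT and 0.611 to 4.27 CPM in KO (0.50 ± 0.58). Between day 2.5 and day 4.5 the KO mean CPM went from 20.2 to 27.6 for EPCAM, 4.96 to 8.02 for CDH1, 3.41 to 8.81 for MAL2 and 4.05 to 7.85 for ESRP1, and from 5.83 to 2.82 for CLDN7.

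KRT18 at day 2.5 read 782 to 1409 CPM (median 1182) in WT and 325 to 637 CPM (median 549) in KO, apart, with a log2 difference of −1.20 ± 0.20. At day 4.5 it read 456 to 818 CPM (median 739) in WT and 147 to 391 CPM (median 236) in KO, again apart (−1.58 ± 0.20). The 3 cl4 libraries were the lowest KO libraries on that day, and the run A libraries were the lowest in WT. Without run A the differences were −1.09 ± 0.18 at day 2.5 and −1.63 ± 0.19 at day 4.5. At day 7.5 the genotypes overlapped, with 241, 221 and 194 CPM in WT and 151, 211 and 164 CPM in KO (−0.36 ± 0.28).

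KRT8, its partner, read 597 to 1898 CPM in WT and 327 to 494 CPM in KO at day 2.5 (−1.35 ± 0.26 log2), and 322 to 699 and 125 to 249.6 CPM at day 4.5 (−1.34 ± 0.26), apart on both days. Without run A these were −0.997 ± 0.13 and −0.96 ± 0.13. At day 7.5 KRT8 read 166 to 219.7 CPM in WT and 119 to 137 CPM in KO, also apart, but it did not pass the rule's threshold. KRT19, the other type I keratin, read 919 to 1443 CPM in WT and 708 to 1041 CPM in KO at day 2.5 (−0.38 ± 0.22), and 181 to 270.3 and 161 to 429.7 CPM at day 4.5 (0.33 ± 0.22), overlapping on both days. In KO the mean was 508 CPM for KRT18 and 906 CPM for KRT19 at day 2.5, against 1134 and 1135 CPM in WT.

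In WT, CLDN6 levels differed by run at day 4.5. The WT libraries of run A read 211 to 263 CPM, those of run B 38.4 to 47.6 and those of run C 28.3 to 29.004. KO libraries read 32.5 CPM in run A, 25.7 in run B and 34.5 to 55.5 in run C. With all libraries CLDN6 differed by −1.27 ± 0.59 at day 2.5 and −1.49 ± 0.59 at day 4.5, and without run A by 0.24 ± 0.22 and 0.13 ± 0.22, so the sign turned. TNFRSF12A, which overlaps CLDN6 on the other strand, read 19.8 to 23.4, 15.0 to 18.2 and 3.96 to 7.51 CPM in WT of runs A, B and C at day 4.5. At day 7.5, where WT came from runs A and B and KO from runs B and C, CLDN6 read 43.6, 53.7 and 55.6 CPM in WT and 26.0, 36.8 and 24.6 CPM in KO. In run B alone, the 2 WT libraries read 53.7 to 55.6 CPM and the 1 KO library 26.0 CPM. Run B at day 7.5 also held EPCAM at 1.29 to 5.58 CPM in WT and 11.7 CPM in KO, and MAL2 at 0 to 1.29 and 3.25 CPM.

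**Figure D2:**
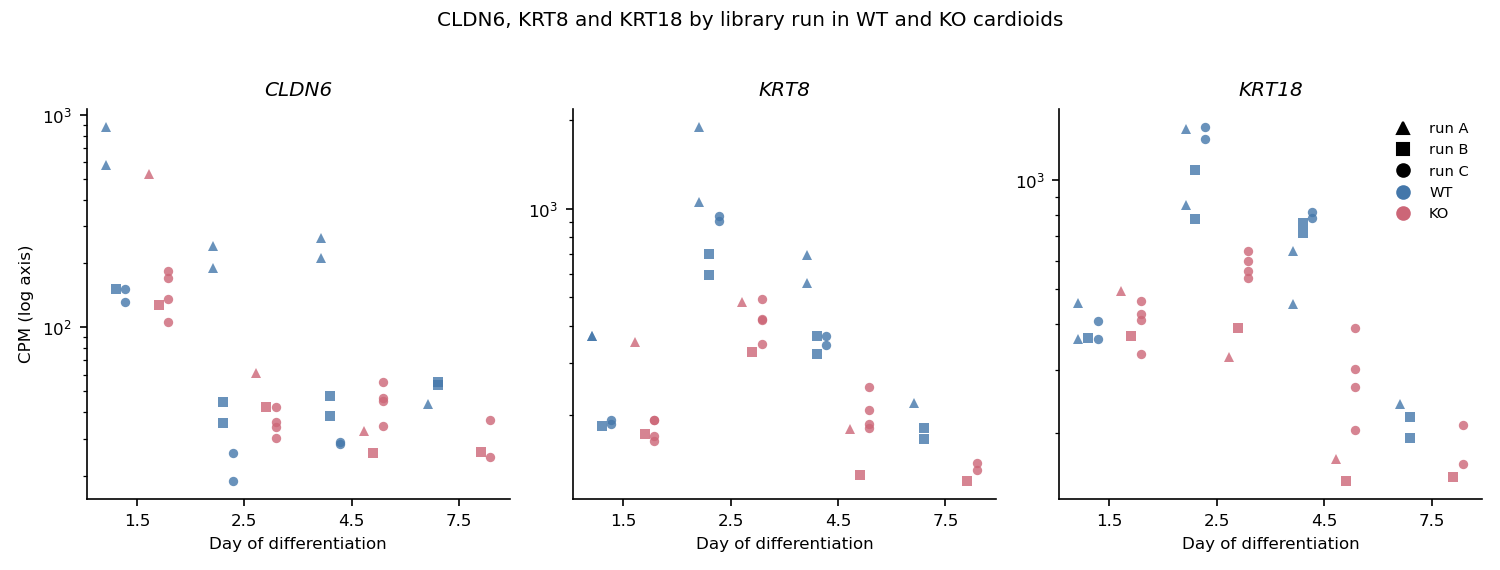
CPM (log axis) of CLDN6, KRT8 and KRT18 in each library of the genotype arm, by day, with colours for WT and KO and marker shapes for runs A, B and C. The 2 WT libraries of run A lie at 211 to 263 CPM of CLDN6 at day 4.5, above all others of that day, while in KRT18 they lie at 456 to 639.7 CPM, the lowest of WT.

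**Figure D3:**
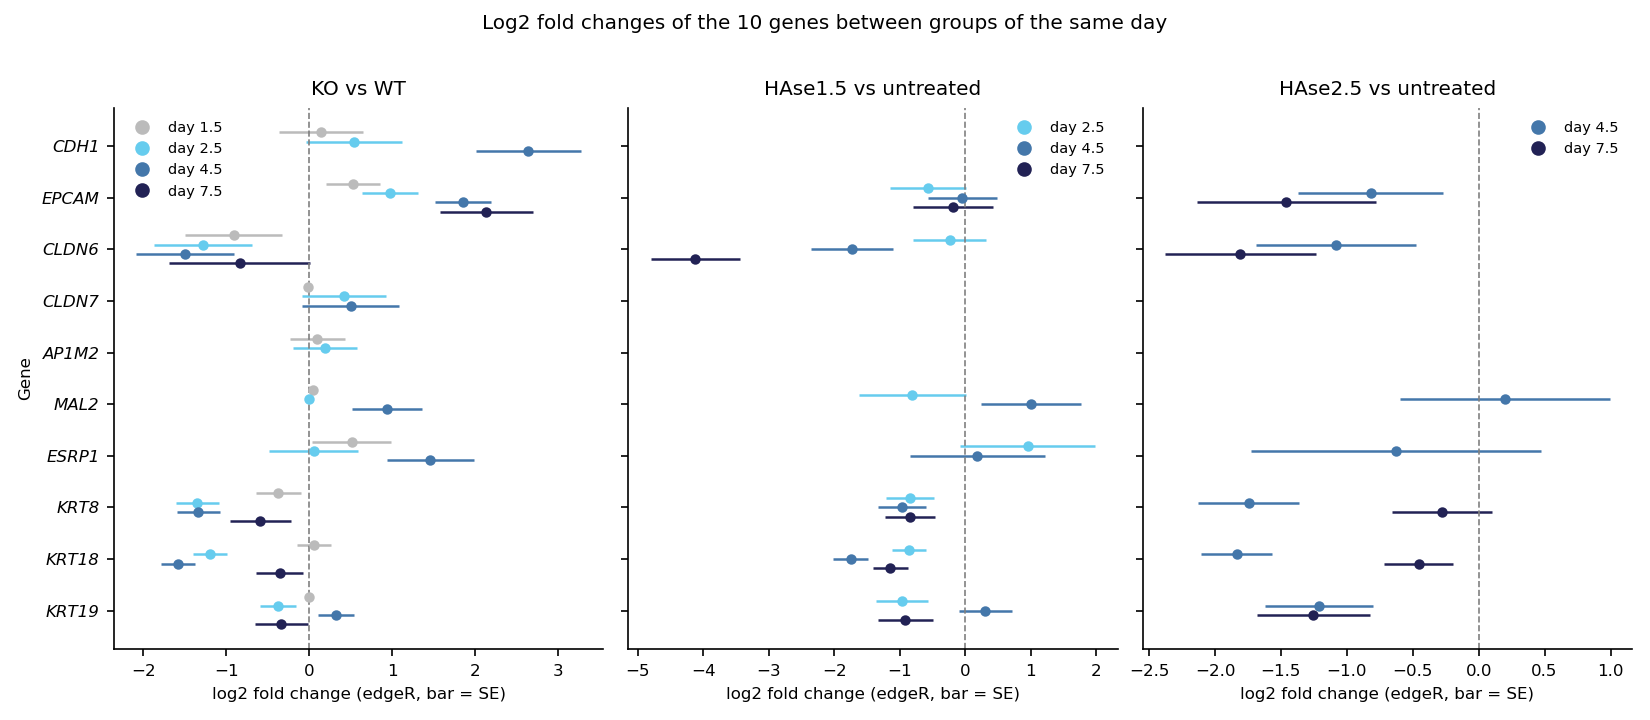
Log2 fold changes (x axis) of the members in the KO and hyaluronidase comparisons, as points with bars of 1 SE. Members that were filtered out, or that had a group at the floor, are not drawn, and KRT18 lies at −1.58 ± 0.20 for KO and −1.75 ± 0.27 for HAse1.5 at day 4.5.

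Hyaluronidase was compared with untreated cardioids of the same 3 lines. At day 2.5, after 1 day of enzyme, 6 of the 9 members other than KRT18 were in the fit and none passed, where 1.14% of all genes did. An unadjusted p under 0.05 was found for 2 of the 6 by edgeR, again with no matching share of all genes, and DESeq2 called none. KRT8 read 691, 614 and 653 CPM untreated and 349, 395 and 369 CPM with enzyme, lower in 3 of 3 lines and apart (−0.85 ± 0.37 log2, adjusted p = 0.439, and 0.0371 in a fit of only these 2 groups). KRT19 read 1204, 1303 and 1590.3 and 658, 1028 and 448 CPM, also lower in 3 of 3 lines (−0.97 ± 0.39, adjusted p = 0.380). KRT18, described only, read 1336, 1527 and 1861 and 650.0, 1229 and 777 CPM (−0.86 ± 0.26). EPCAM (−0.57 ± 0.58) and CLDN6 (−0.24 ± 0.56) did not pass.

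At day 4.5 KRT18 was lower with either enzyme start. It read 566, 629.6 and 649 CPM untreated, 241, 199.6 and 137 CPM with HAse1.5 and 176, 158 and 193 CPM with HAse2.5, where both enzyme groups lay below all untreated libraries (−1.75 ± 0.27 and −1.84 ± 0.27 log2). These 2 comparisons share their untreated libraries, and the choice of genes used both. KRT8 read 350.1, 385 and 297, 263, 201 and 93.1 and 138, 114 and 62.8 CPM in the same order (−0.97 ± 0.37 and −1.74 ± 0.38). KRT19 read 300.3, 174 and 246, 518, 197 and 231 and 131, 89.0 and 99.4 CPM, below all untreated libraries with HAse2.5 and overlapping them with HAse1.5 (0.31 ± 0.40 and −1.21 ± 0.41). At the threshold 1 member was lower with each start, KRT18, where 3.48% and 0.22% of all genes were called.

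EPCAM, MAL2, AP1M2 and CDH1 varied between the 3 enzyme lines at day 4.5. EPCAM read 21.2, 19.5 and 11.8 CPM untreated, 30.4, 6.91 and 15.7 CPM with HAse1.5 and 15.8, 10.1 and 4.49 CPM with HAse2.5, overlapping (−0.05 ± 0.53 and −0.82 ± 0.55). MAL2 read 8.19, 5.33 and 2.09 CPM untreated and 21.1, 0.864 and 11.1 CPM with HAse1.5, higher in lines TNNI1 and TNNT2 and lower in line WT (1.01 ± 0.76). AP1M2 was not in the fit. It read 0, 0 and 2.78 CPM untreated and 2.48, 0 and 0 CPM with HAse1.5. CDH1 read 0, 1.78 and 0 CPM untreated, a group at the floor, and 1.86, 1.73 and 2.91 CPM with HAse1.5.

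CLDN6 was the member with the largest enzyme difference at day 7.5. It read 167, 61.9 and 142 CPM untreated, 3.26, 10.1 and 9.06 CPM with HAse1.5 and 67.1, 22.8 and 19.0 CPM with HAse2.5. HAse1.5 lay below both other groups in all 3 lines (−4.13 ± 0.68 log2 against untreated, described only). HAse2.5 overlapped untreated by range and was lower in 3 of 3 lines (−1.81 ± 0.57, adjusted p = 0.176), and HAse1.5 differed from HAse2.5 by −2.32 ± 0.69 (adjusted p = 0.448). KRT18 read 174, 339.5 and 378, 129, 139 and 169 and 256, 212 and 209.6 CPM in the 3 groups (−1.15 ± 0.27 for HAse1.5 and −0.46 ± 0.26 for HAse2.5). At the threshold CLDN6 and KRT18 were lower with HAse1.5, where 3.33% of all genes were called.

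The tests of HAse2.5 at day 7.5 and of the 2 enzyme starts called no member. Of the 6 tested members in the fit, HAse2.5 against untreated at day 7.5 called none (0.659% of all genes), with 3 at an unadjusted p under 0.05 and none by DESeq2. EPCAM read 11.6, 3.19 and 7.42 CPM untreated and 2.08, 4.03 and 1.96 CPM (−1.46 ± 0.68, adjusted p = 0.352), and KRT19 181, 100.2 and 131 and 100.3, 38.9 and 38.6 CPM (−1.25 ± 0.43, adjusted p = 0.215). HAse1.5 against HAse2.5 called none at day 4.5 (0.361% of all genes) and none at day 7.5 (0.00784%), with 1 member at an unadjusted p under 0.05 on each day. These shares are at the adjusted threshold, and the share of all genes at an unadjusted p under 0.05 is not given for these comparisons. DESeq2 called 1 at day 4.5 and none at day 7.5. That member at day 4.5 was KRT19, higher with HAse1.5 (1.52 ± 0.41, adjusted p = 0.118), which passed with a replicate block for the line (adjusted p = 0.0495) and without HAse1.5 replicate 2 (0.0373).

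**Figure D4:**
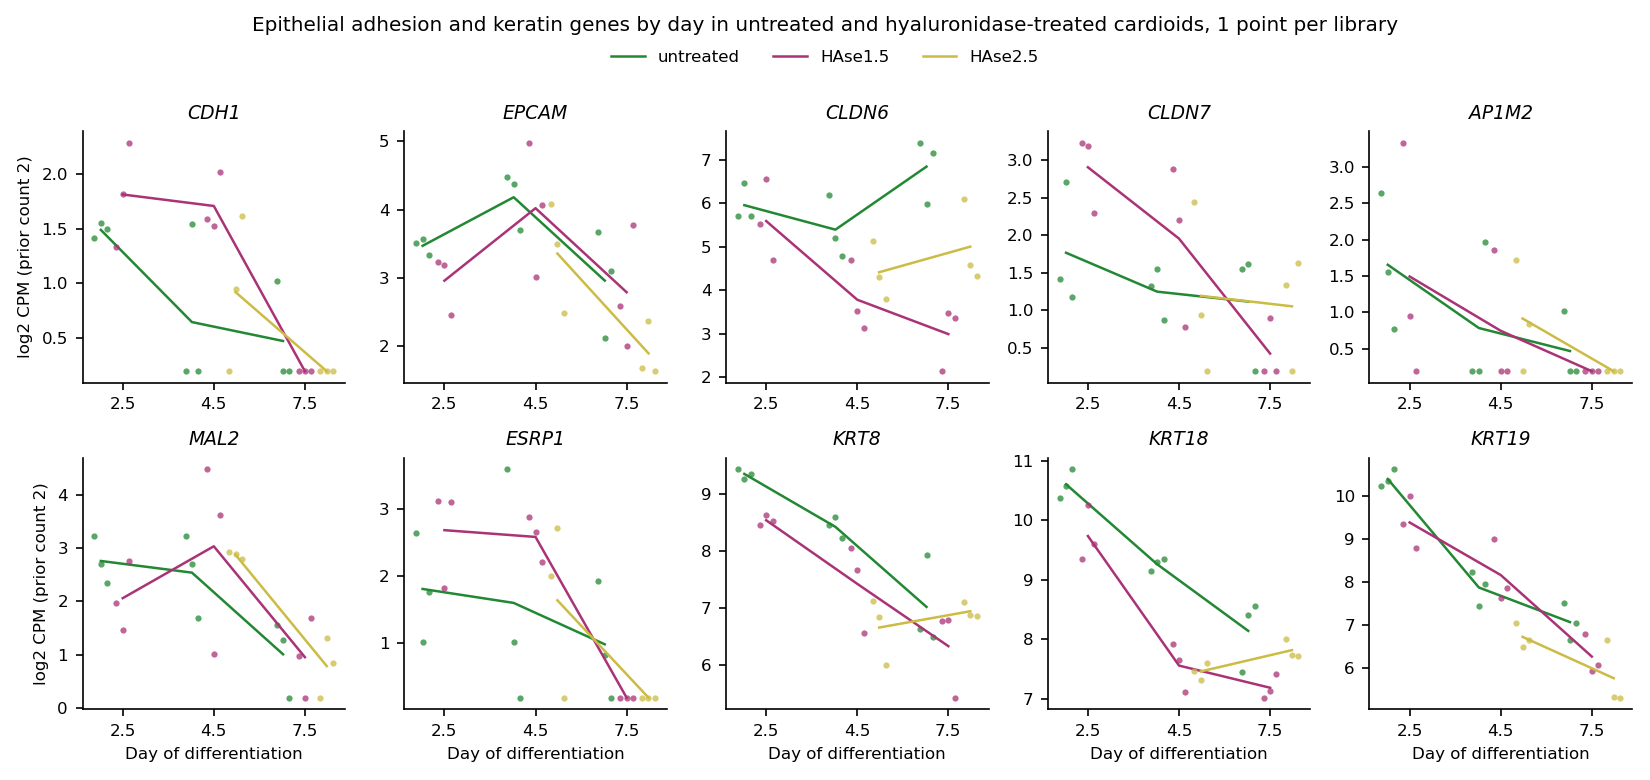
Log2 CPM (prior count of 2) of the 10 genes (y axes) at days 2.5, 4.5 and 7.5 in untreated, HAse1.5 and HAse2.5 libraries, with each point a library. On the unlogged CPM scale, KRT18 at day 4.5 lies at 566 to 649 CPM untreated and at 137 to 241 and 158 to 193 CPM with enzyme.

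Other genes of the epithelial programme were taken from lists: 24 further junction genes, 28 regulators and trafficking genes, and 11 further keratins. Lists are described by counts and by the median log2 fold change beside that of all genes tested. In WT from day 1.5 to day 2.5, 1 junction gene rose and 3 fell among 17 of 24 in the fit, where 30.1% of all genes were called (median 0.23, all genes 0.01). CTNND1, which encodes the p120 catenin that binds cadherin tails, rose (log2 0.80 ± 0.21, adjusted p = 0.00265), and MARVELD2, a tight junction protein, fell (−1.74 ± 0.31, adjusted p = 2.42e-05). Of the regulators and trafficking genes, 1 rose and 7 fell among 14 (median −0.99). RAB17, a GTPase of epithelial transport, fell (−1.66 ± 0.31, adjusted p = 4.92e-05), and ELF3, an epithelial transcription factor, rose from a group at low counts (15.3 against 0.776 CPM, day 2.5 against day 1.5). The keratin list had 1 gene in either fit, and none was called in any comparison.

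In KO against WT the junction list held 1 call at day 2.5 and none at days 4.5 and 7.5 (of 17 in the fit, medians −0.12, 0.29 and 0.12). The call was CDH3, which encodes P-cadherin (14.4 against 40.5 CPM, log2 −1.56 ± 0.41, adjusted p = 0.0472). CDH3 was lower with HAse1.5 at day 2.5 as well (7.28 against 27.7 CPM, −1.95 ± 0.40, adjusted p = 0.00942), together with PARD6B, a polarity protein (−1.23 ± 0.31, adjusted p = 0.0436). At day 4.5 the regulators held 1 gene higher and 1 lower in KO (median −0.10): PRSS8, a membrane protease of epithelia (4.77 against 0.991 CPM, 1.96 ± 0.43, adjusted p = 0.00580), and LLGL2, a polarity gene (20.4 against 33.6 CPM, −0.78 ± 0.22, adjusted p = 0.0403). LLGL2 was also lower with HAse1.5 at day 2.5 (−1.61 ± 0.35, adjusted p = 0.0174) and day 4.5 (−1.31 ± 0.35, adjusted p = 0.0379). With HAse1.5 at days 4.5 and 7.5 and with HAse2.5 no junction gene of the 13 in the fit was called.

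The mesenchymal list (17 genes, 16 in the genotype fit and 15 in the enzyme fit) moved with the days. In WT from day 1.5 to day 2.5, 6 rose and 2 fell (median 0.90, or 0.65 with genes at the floor set to their bound). FN1, fibronectin, rose (3.54 ± 0.28, adjusted p = 3.33e-13) and CDH2, N-cadherin, fell (−1.62 ± 0.20, adjusted p = 2.9e-08) over the step in which CDH1 fell. From day 2.5 to day 4.5, 6 of the 16 rose and 8 fell, where 34.5% of all genes were called. The median was −0.63, or −0.39 with genes at the floor set to their bound (all genes 0.03). CDH2 rose over this step (1.86 ± 0.19, adjusted p = 4.3e-10), and SNAI2, a repressor of CDH1, fell (−3.54 ± 0.48, adjusted p = 1.21e-07). In KO against WT, VIM, vimentin, was lower at day 2.5 (−0.86 ± 0.21, adjusted p = 0.0291), and PDGFRA (1.08 ± 0.22, adjusted p = 0.00188) and FN1 (0.81 ± 0.23, adjusted p = 0.0405) were higher at day 4.5, with none of the list lower (median 0.20, all genes −0.03). With HAse1.5, VIM (−1.26 ± 0.23, adjusted p = 0.00379) and PDGFRA (−2.03 ± 0.35, adjusted p = 0.00214) were lower at day 2.5. At day 4.5 with HAse1.5, CDH2 was lower (−1.69 ± 0.24, adjusted p = 0.000193) and 2 of the list were higher, CDH11, another cadherin (1.59 ± 0.38, adjusted p = 0.0203), and PRRX1, a mesenchymal transcription factor (23.7 against 1.38 CPM). At day 7.5 FN1 was higher (2.23 ± 0.39, adjusted p = 0.00209) and CDH2 lower (−0.90 ± 0.24, adjusted p = 0.0321).

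Markers of other cell types moved with some of these differences, and their part in the results was not tested. At day 4.5, of 15 endoderm markers 13 were in the fit and 2 were higher in KO, with none lower (FOXA3 1.89 ± 0.50, adjusted p = 0.0252; CXCR4 at 3.98 against 0.847 CPM with WT at the floor; median 0.80). Their summed level was 60.6 to 160.3 CPM in WT and 104 to 217 CPM in KO. At day 7.5, where none was called, it was 143 to 293 and 292 to 611 CPM. FOXA2, an endoderm transcription factor, read 0 to 11.5 CPM in WT and 8.69 to 22.9 CPM in KO at day 4.5, and 2.05 to 3.88 and 9.76 to 12.7 CPM at day 7.5. EPCAM passed the rule's threshold in KO at day 4.5 and MAL2 at day 7.5. SOX17 was near 0 at day 4.5 in both (0 to 3.96 and 0 to 2.54 CPM). FOXA2 and SOX17 are named as defining markers, and FOXA2 was singled out after its values were seen.

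Of 14 surface ectoderm, amnion and trophoblast markers, 5 were in the fit and 3 were higher in KO at day 4.5 (median 1.44, or 1.16 with genes at the floor at their bound). TFAP2A, a transcription factor of surface ectoderm, differed by 2.38 ± 0.49, adjusted p = 0.00292. The list's sum was already 283 to 377 CPM in WT and 204 to 371 CPM in KO at day 2.5, and 128 to 225 CPM in untreated cardioids at day 4.5. In the genotype arm at day 4.5 it was 46.5 to 131 CPM in WT and 120.4 to 357 CPM in KO. On that day TP63, WNT6 and KRT5 were at 0 in every library of both. Pluripotency markers summed to 414 to 602 and 370.2 to 625.4 CPM, with 3 of 12 higher and 2 lower, and POU5F1 was low in both (0.360 to 1.87 and 0 to 3.55 CPM). Cardiomyocyte markers summed to 27534 to 59557 CPM in WT and 16230.1 to 42858 CPM in KO at day 4.5, with 4 of 10 lower in KO and none higher (median −1.0002). At day 2.5, 4 of 10 were lower as well and none higher (median −0.93, or −0.71 with genes at the floor at their bound). Their sums then overlapped, at 328 to 2853 CPM in WT and 836 to 1723 CPM in KO. KRT8 and KRT18 were lower in KO on both days.

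In the enzyme arm, cardiomyocyte markers summed to 24318 to 47260.4 CPM untreated, 5108 to 19449 CPM with HAse1.5 and 18143 to 32414 CPM with HAse2.5 at day 4.5, with 7 of 10 lower in HAse1.5 and none called in HAse2.5. KRT18 differed by −1.75 ± 0.27 and −1.84 ± 0.27. Endoderm markers at day 7.5 summed to 131 to 559 CPM untreated, 48.9 to 112 CPM with HAse1.5 and 49.0 to 95.5 CPM with HAse2.5, with 3 of the 10 in the fit lower with either start and none higher. AFP, a fetal liver protein gene, read 9.64 to 83.9 CPM untreated, 0 in every HAse1.5 library and 0 to 0.655 CPM with HAse2.5. CLDN6 had its lowest values in the same HAse1.5 libraries. Surface ectoderm markers summed to 128 to 225 and 172 to 504 CPM at day 4.5, untreated and with HAse1.5.

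Over the 16 groups, Pearson's r between the members' mean log2 CPM profiles is given as a description, since the groups share runs and lines. Among CDH1, EPCAM, AP1M2, MAL2, CLDN7 and ESRP1 it ran from 0.68 (EPCAM and CLDN7) to 0.95 (CDH1 and AP1M2). Among the keratins it was 0.93 between KRT8 and KRT18, 0.85 between KRT8 and KRT19 and 0.79 between KRT18 and KRT19. Between those 6 genes and the keratins it ran from 0.05 (MAL2 and KRT19) to 0.36 (CLDN7 and KRT8). CLDN6 stood between the 2 sets, with 0.31 (EPCAM) to 0.65 (AP1M2) against the 6 and 0.07 (KRT19) to 0.46 (KRT18) against the keratins, ranges that overlap. CDH1, EPCAM, AP1M2, MAL2, CLDN7 and ESRP1 had their highest group mean in KO at day 1.5 (35.7 CPM for EPCAM), CLDN6 in WT at day 1.5 (379), KRT8 in WT at day 2.5 (1017), and KRT18 and KRT19 in untreated at day 2.5 (1574 and 1366). At day 1.5 the KO and WT libraries overlapped in all 10 genes. CDH1 was at the floor in 7 of 16 groups, AP1M2 in 6, CLDN7 in 5, MAL2 and ESRP1 in 4 each, and CLDN6, EPCAM and the keratins in 0.

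The genes whose profile over the 16 groups was most like the members' mean profile, of 14023 compared, were HMGB3 (r = 0.95), AIF1L (0.95), RAB11FIP4, CENPV, CDC25A, BIN3, RPS27A and DTX4 (lowest r = 0.93). This order did not carry over to each arm: with the genotype or the enzyme groups alone, 0 of these 8 genes stayed among the 8 most alike.

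**Figure D5:**
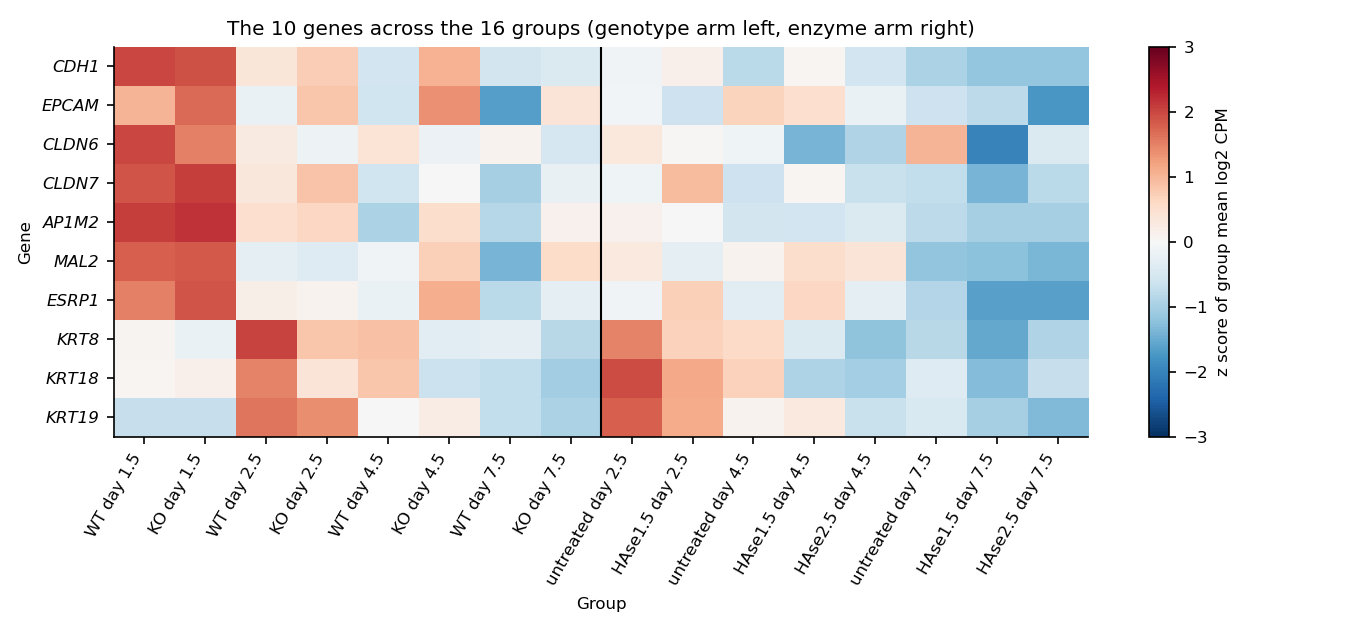
Group means of log2 CPM of the members (rows) over the 16 groups (columns), scaled per gene to mean 0 and SD 1, with the colour scale in SD units. The adhesion genes are high in the day 1.5 groups and the 3 keratins in the day 2.5 groups.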

How the data were processed

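The deposited table holds whole-number read counts per Ensembl gene, made with featureCounts (Subread 1.6.2) on GRCh38, per the submitters' processing notes. The aligner, annotation and strand setting are not given in the sources used here. Its 58735 gene IDs all occur in GENCODE 29, and 58207 matched a current symbol. A further 4 columns match none of the samples and were left out.

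Libraries were grouped from their titles. In R 4.3.3 with edgeR 4.0.16, each arm was fitted once over all its groups (filterByExpr with a minimum count of 10, TMM scaling, robust quasi-likelihood), and two-sided F-tests were adjusted by Benjamini-Hochberg over all genes of the fit (threshold 0.05). The procedure was tested on simulated data. CPM was computed from library totals, and log2 CPM for profiles and correlations with a prior count of 2. DESeq2 1.42.0, RLE size factors, no filter, fits of 2 groups, replicate blocks and leaving out each library were the alternatives. Leaving out run A was added after seeing the data.

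The members and lists were chosen with earlier results of these data known. Contrasts that the choice used carry no test of the members. For genes of the lists, adjusted p-values are given in these contrasts too, although the lists were also chosen with earlier results known. The steps between days were planned as tests of all members, but those that reuse the libraries a member was chosen on are described only. Knockout against wild type at day 2.5 was first planned as a test, but KRT8 and KRT18 pass there, so it is described only. Planned tests of differences between effects were dropped, since each contains such a contrast. In each list and comparison, the genes named are from the up to 2 with the smallest p in each direction among those past the threshold. The likeness rule correlated the members' mean scaled profile over 16 groups with every other gene of at least 5 CPM in a group, and named the 8 highest.

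The main fits held no term for line or repeat and took the libraries as independent, with replicate blocks as alternatives. Pairing by line and repeat name was checked on residual correlations. In the WT steps, 14 of 14 pairs had r over 0.1 (0.247 to 0.825), and in the enzyme arm 18 of 27 pairs of the same line did (−0.190 to 0.556), where replicate numbers mark 3 lines.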

Additional observations from a re-analysis of the deposited data

Results flagged for a closer look

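Single libraries lay far from the rest of their group in 7 of 60 groups of 4 to 10 libraries examined over the 10 genes, by Dixon's criterion, and chance alone flags about 1 in 20 groups. In KO at day 4.5, cl46_R1 was lowest in EPCAM at 20.5 CPM (the others 27.5 to 29.9) and lowest in ESRP1 at 3.23 CPM (the others 7.62 to 9.78). In KO at day 1.5, cl4_R1 was highest in CLDN6 at 527 CPM (the others 106 to 184) and highest in KRT8 at 353 CPM (the others 164 to 192). It is the only KO library of run A at day 1.5. CLDN7 was lowest in TNT2 at 0.492 CPM in WT at day 2.5 (the others 3.57 to 7.34) and lowest in cl4_R2 at 0.611 CPM in KO at day 4.5 (the others 2.54 to 4.27). AP1M2 was highest in WT_TU_R1 at 0.360 CPM in WT at day 4.5, where the other 5 libraries were at 0.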

How the results depend on the processing

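For the members tested, 64 log2 fold changes were recomputed under 849 alternatives in all. Of these, 819 kept their side of the threshold, 19 lost the call, 11 gained one and 0 changed direction with a call in either fit. Direction was not compared where neither fit called the member, and some such values changed sign. CLDN6 from day 4.5 to day 7.5 in WT, for example, ran from −1.23 to 0.648 over the alternatives. The number of members called moved by over 1.5 times in 5 comparisons. For WT at day 7.5 against day 4.5 it was 2, with 1 left when the 2 groups were fitted alone, 1 without run A and 0 to 2 with 1 library left out. For untreated at day 4.5 against day 2.5 it was 2, and 1 with no filter on low counts and 1 without any 1 of the 6 libraries. For untreated at day 7.5 against day 4.5 it was 0, and it was 2 with a replicate block for the line, 1 by DESeq2, and 0 to 2 with 1 library left out. For HAse1.5 against untreated at day 2.5 it was 0, and 1 in a fit of only the 2 groups. For HAse1.5 against HAse2.5 at day 4.5 it was 0, and 1 with the replicate block, 1 by DESeq2, and 0 to 1 with 1 library left out. The cause was not tested, although fits of 2 groups or without a library hold fewer libraries. The replicate block changed no other call. CLDN6 from day 1.5 to day 2.5 in WT lost its call in a fit of only the 2 groups (adjusted p = 0.0555). Of 952 alternatives of 69 described values, 45 moved by over 1 SE. Counts of 3 or fewer limit CDH1, AP1M2, CLDN7, MAL2 and ESRP1 at days 4.5 and 7.5.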
